A study of Mus musculus with 13 samples.

Results

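Genes of the mevalonate pathway were examined in subcutaneous Panc02 tumors, together with those of cholesterol synthesis, its control by SREBP2 and the attachment of prenyl groups to proteins. A list of 33 genes was drawn up by name from the known biochemistry, with earlier results of these data known, and 30 of them were measured among the 22180 genes of the array. Acat2 and Pdss1 were not analysed here, and Idi1 was left out because its only listed probe set carried a second gene symbol. Panc02 is a mouse pancreatic ductal adenocarcinoma (PDAC) line, and its cells had been injected under the skin of the right flank of male C57BL/6 mice. Mice were fed either a control diet or a high-fat diet that causes diet-induced obesity (DIO), each with or without β-hydroxy-β-methylbutyrate (HMB), a product of leucine breakdown that was mixed into the food. The groups were DIO + HMB (n = 4), DIO (n = 3), control + HMB (n = 3) and control (n = 3). Each array is taken here as the tumor of a separate mouse, which the sample titles do not state. Mice were fasted for some hours before they were killed. Mice of the study also received gemcitabine, a chemotherapy, or its vehicle, and which of these each tumor was exposed to is not given in the labels. The tumors were transplanted grafts of 1 cell line at a site outside the pancreas, mixed with whatever host cells had entered them.

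The pathway starts from acetyl-CoA. HMG-CoA synthase and its partners build mevalonate, kinases and a decarboxylase turn it into isoprene units, and these are joined into farnesyl diphosphate, the point where the route splits. One branch leads through squalene and lanosterol to cholesterol. The other lengthens the chain to geranylgeranyl diphosphate, dolichol and the tail of ubiquinone, and supplies the lipid anchors of Ras and Rab proteins. When membrane sterol is low, SCAP carries the transcription factor SREBP2 out of the endoplasmic reticulum and most genes of the sterol branch are switched on together, whereas INSIG proteins hold SCAP back when sterol is plentiful. HMB is linked to the route because it can be converted to HMG-CoA, which is why these genes are of interest in HMB-fed mice.

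The members fell into 5 groups by role, namely 5 genes of mevalonate entry, 12 of squalene to cholesterol, 5 of SREBP2 regulation, 3 of long prenyl chains and 5 of the protein prenyltransferases. Values are log2 array intensities after RMA normalization, so a difference of 1 is a doubling of signal, and levels of different genes are not compared because probes differ in brightness. All 30 members had a mean above 4.45, the median of all genes, which is a place among probes and not a measure of expression. Of 8 epithelial and ductal markers measured, Krt8 ran from 8.75 to 9.62 and Krt18 from 8.99 to 9.97 over the 13 arrays, and Cdh1 and Muc1 had means of 7.67 and 5.88, also above the median of all genes. Krt19, Krt7, Epcam and Cldn4 had means of 4.11, 3.98, 4.43 and 2.73, below that median. In RNA from whole tumors, fewer cells of a type and less RNA per cell cannot be told apart.

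Markers of other tissues set several arrays apart, as judged by the mean log2 value of each marker list. B cell markers (7 of 8 measured) ran from 3.83 to 8.08 in DIO + HMB, 3.57 to 3.82 in DIO, 4.21 to 4.59 in control + HMB and 3.99 to 4.06 in control, with the highest value in DIO + HMB replicate 1. Adipocyte markers (9 of 10) ran from 5.69 to 9.07 in DIO + HMB, 5.26 to 7.11 in DIO, 6.34 to 7.41 in control + HMB and 4.96 to 7.66 in control, with the highest value in DIO + HMB replicate 2. Arrays also differed in width, the SD of the log2 values over all genes of 1 array, which averaged 2.60 ± 0.019 in DIO + HMB, 2.56 ± 0.044 in DIO, 2.60 ± 0.022 in control + HMB and 2.52 ± 0.019 in control. The part of these differences in the results below was not tested, apart from the fits without single arrays or on rescaled arrays that are given beside them. Widths ran from 2.511 to 2.544 in control, below all those of control + HMB (2.572 to 2.616) and DIO + HMB (2.576 to 2.62). In DIO they ran from 2.514 to 2.601. Width and HMB thus nearly coincide, and a fit with width as a covariate cannot tell their parts in a difference from control apart.

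Promoters were read for 24 of the 30 measured members, as windows of 250 bases before to 50 after each RefSeq start (GRCm38.p6), and searched on both strands for a sterol regulatory element written as TCACNCCAC, the kind of site that SREBP2 binds, and for CCAAT, the box bound by NF-Y. CCAAT stood in the window of 20 of the 24 genes (83.3%), against 41.1% of 27025 genes with a window. It was found for all 4 genes of mevalonate entry and all 10 of squalene to cholesterol that had a window, but for 1 of 3 protein prenyltransferase genes. The sterol element as spelled here was in 1 member, Hmgcs1 (4.17% of the 24), against 1.44% of all genes. Fdps, Fdft1, Sqle, Stard4, Fnta and Pggt1b had no window and were not searched. The first 250 bases of 4 windows are shown, for Hmgcs1 because it held the sterol element, for Cyp51 and Nsdhl as genes of the sterol branch, which varied together between tumors, and for Ggps1 as the member whose level differed most between groups. Capitals mark the sterol element and the boxes, and ATTGG is CCAAT on the other strand. The motifs do not overlap one another, a match is a description of letters and not a site, and none in the window says nothing of the factor.
Hmgcs1 (chr13:119690101-119690350, strand +): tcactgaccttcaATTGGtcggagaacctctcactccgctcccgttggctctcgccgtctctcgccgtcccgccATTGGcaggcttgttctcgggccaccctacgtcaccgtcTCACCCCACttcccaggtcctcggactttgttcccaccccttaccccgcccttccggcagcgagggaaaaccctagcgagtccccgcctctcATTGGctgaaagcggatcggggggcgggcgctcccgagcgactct
Cyp51 (chr5:4104698-4104947, strand -): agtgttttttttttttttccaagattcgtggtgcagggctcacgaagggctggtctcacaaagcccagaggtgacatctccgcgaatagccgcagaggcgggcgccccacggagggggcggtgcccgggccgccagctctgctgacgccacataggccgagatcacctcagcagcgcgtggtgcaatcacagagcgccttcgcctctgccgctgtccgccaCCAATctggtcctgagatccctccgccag
Nsdhl (chrX:72918271-72918520, strand +): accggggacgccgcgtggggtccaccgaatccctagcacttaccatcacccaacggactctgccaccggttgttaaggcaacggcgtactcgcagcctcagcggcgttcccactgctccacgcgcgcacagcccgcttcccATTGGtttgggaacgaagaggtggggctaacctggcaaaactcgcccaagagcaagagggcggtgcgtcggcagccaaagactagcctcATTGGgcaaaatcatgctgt
Ggps1 (chr13:14063489-14063738, strand -): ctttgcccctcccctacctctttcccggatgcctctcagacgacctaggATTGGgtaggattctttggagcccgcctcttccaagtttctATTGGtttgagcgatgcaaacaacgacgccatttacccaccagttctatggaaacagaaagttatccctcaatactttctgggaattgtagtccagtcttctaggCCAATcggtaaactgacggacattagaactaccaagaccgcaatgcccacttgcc
In Hmgcs1 the sterol element began 137 bases before the start, with boxes at 237, 176 and 45 bases before it. The Cyp51 box began at 29 bases, the 2 Nsdhl boxes at 109 and 20 bases, and the 3 Ggps1 boxes at 201, 160 and 55 bases before the start.

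To ask whether diet or HMB altered the route, all groups were fitted in 1 limma model and p-values were adjusted over all 22180 genes by the Benjamini-Hochberg method. At an adjusted p of 0.05, 0 members and 0 of all genes (0%) passed in each of the 7 comparisons, so no gene below is said to have changed. At an unadjusted p under 0.05, in either direction, 5 members in control + HMB against control stood beside 11.4% of all genes, and 4 members in DIO against control beside 7.74%. There were 0 members in DIO + HMB against DIO (7.08% of all genes), 3 in DIO + HMB against control (14.8%), 1 in DIO + HMB against control + HMB (2.85%), 3 for the mean HMB effect of the 2 diets (13.9%) and 1 for the interaction of diet and HMB (4.82%). The heat map of all members sets these small differences between groups beside the larger ones between tumors of a group.

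**Figure D1:**
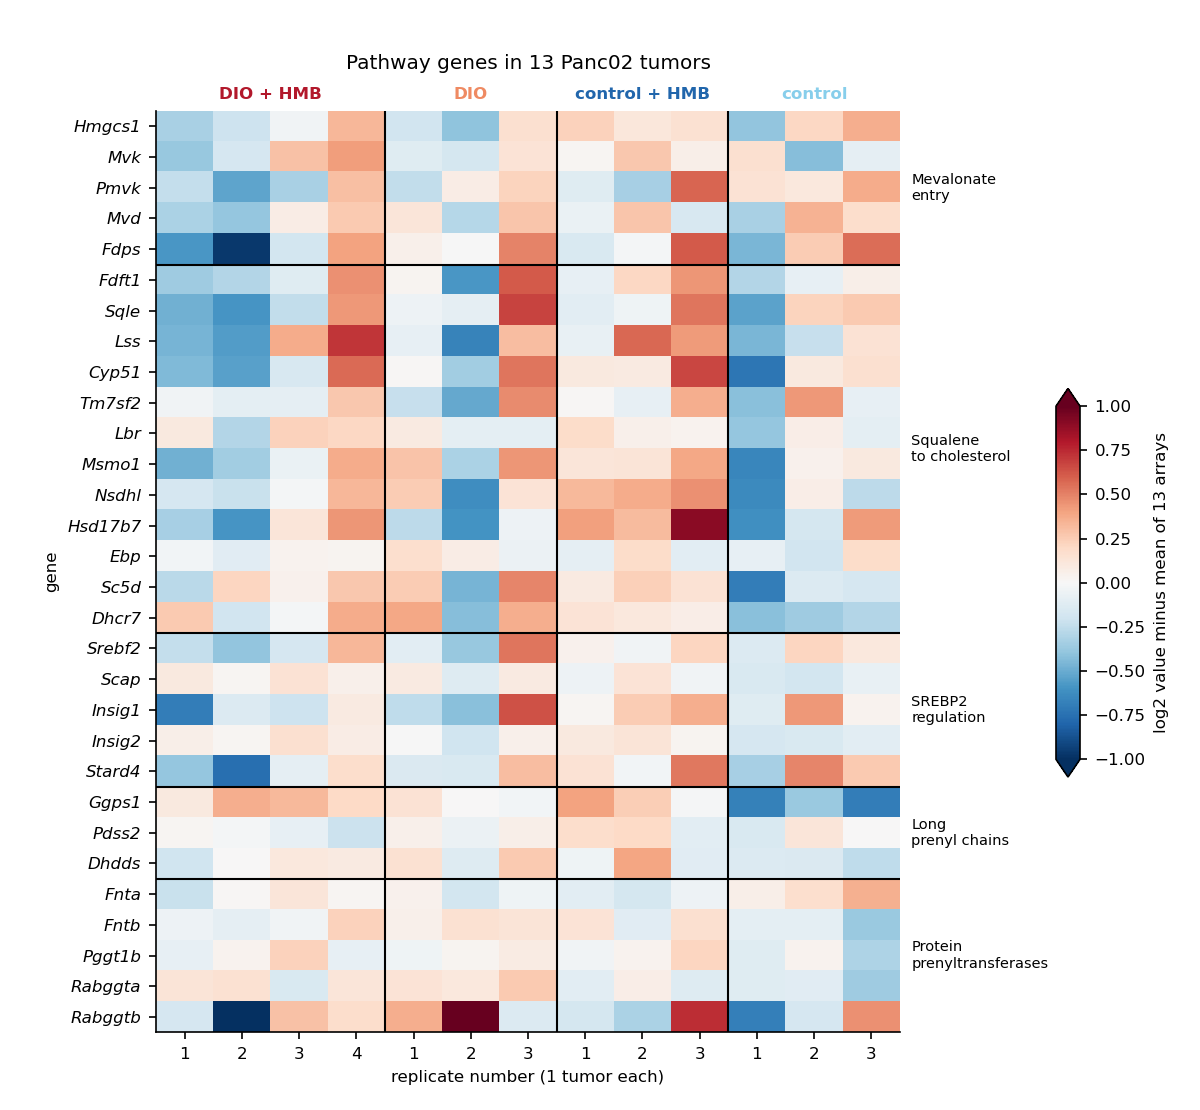
Log2 value of each measured member (rows, by role) in each of 13 tumors (columns, by group and replicate), minus the gene's mean over all arrays. Ggps1 is low in all 3 control tumors, whereas most sterol genes are low or high in single tumors of a group, such as control replicate 1 (low) and DIO + HMB replicate 4 (high).

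Ggps1 was the member that set the control tumors apart. It encodes geranylgeranyl diphosphate synthase, the enzyme that makes the lipid with which most Rab proteins are anchored. Ggps1 measured 7.83, 8.09, 8.05 and 7.92 in DIO + HMB tumors, 7.87, 7.73 and 7.70 in DIO tumors, 8.13, 7.98 and 7.71 in control + HMB tumors, and 7.05, 7.35 and 7.03 in control tumors. All 10 tumors of the other groups lay above all 3 control tumors, with a gap of 0.34 between the nearest 2. Ggps1 was the only one of the 30 members with this order, which 396 genes (1.79%) shared, and 0 members and 227 genes (1.02%) showed the opposite order.

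Against control, Ggps1 was higher by 0.83 ± 0.13 (SE) on the log2 scale in DIO + HMB (1.77-fold, adjusted p = 0.1366, limma), by 0.79 ± 0.14 in control + HMB (1.73-fold, adjusted p = 0.2713) and by 0.62 ± 0.14 in DIO (1.54-fold, adjusted p = 0.575). These comparisons share the same 3 control tumors. By unadjusted p it ranked 6, 4 and 33 of all genes in the 3 comparisons, and it did not pass in any. Between DIO + HMB and DIO the difference was 0.21 ± 0.13, and the groups overlapped. The HMB effect on Ggps1 was smaller in DIO than in the control diet by 0.59 ± 0.20 (interaction, adjusted p = 0.9334, limma), which did not pass either. On arrays brought to equal width the differences from control were 0.56 in DIO + HMB, 0.57 in control + HMB and 0.53 in DIO.

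The other 2 genes of long prenyl chains showed less. Dhdds, a subunit of the enzyme that makes dolichol, averaged 7.67 ± 0.14 in DIO + HMB, 7.76 ± 0.20 in DIO, 7.75 ± 0.27 in control + HMB and 7.49 ± 0.065 in control (SD). Its DIO and control + HMB tumors each lay above the control tumors, by narrow margins. Pdss2, a subunit of the enzyme that makes the ubiquinone tail, had group means between 5.91 and 6.08 and overlapped in every comparison.

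**Figure D2:**
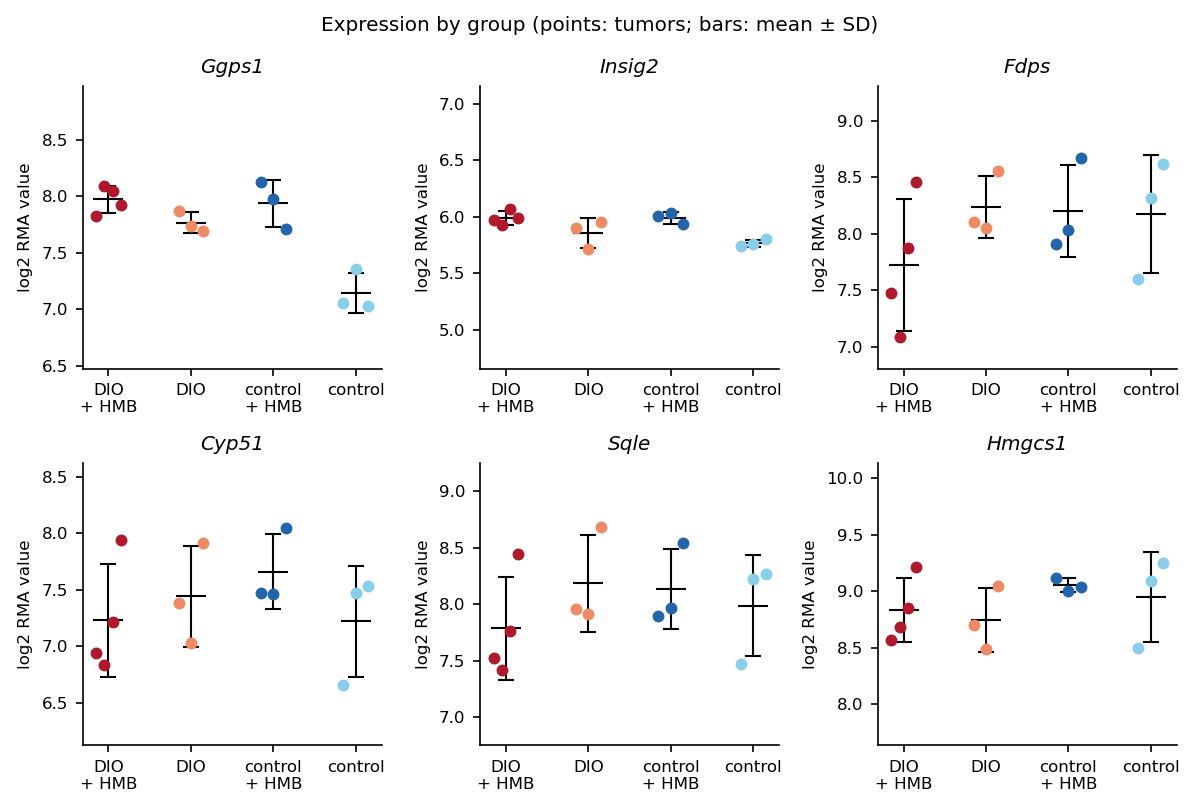
Log2 value of 6 members in each tumor (points) with the group mean and SD (bars), n = 4 in DIO + HMB and 3 in the other groups. The vertical axes cover equal spans, so the separate control tumors of Ggps1 can be set against the overlapping groups of Fdps, Cyp51, Sqle and Hmgcs1.

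Genes of mevalonate entry did not separate the groups. Hmgcs1, which encodes the cytosolic HMG-CoA synthase, measured 8.57, 8.69, 8.85 and 9.22 in DIO + HMB tumors, 8.70, 8.49 and 9.05 in DIO tumors, 9.12, 9.01 and 9.04 in control + HMB tumors, and 8.50, 9.10 and 9.25 in control tumors. Fdps, the farnesyl diphosphate synthase that stands at the branch point, measured 7.47, 7.09, 7.87 and 8.46 in DIO + HMB tumors, 8.11, 8.05 and 8.55 in DIO tumors, 7.91, 8.03 and 8.67 in control + HMB tumors, and 7.60, 8.31 and 8.61 in control tumors. For both genes the range of the DIO + HMB tumors overlapped that of every other group. Against DIO, DIO + HMB was lower in Fdps by 0.51 ± 0.32 (SE) and differed in Hmgcs1 by 0.09 ± 0.20. The kinases Mvk and Pmvk and the decarboxylase Mvd differed by at most 0.23 between either HMB group and its diet control, each within 1.2 standard errors. Of the 5 genes, 3 were higher in control + HMB than in control (median difference 0.03), 2 were higher in DIO than in control (-0.03), and 2 were higher in DIO + HMB than in DIO (-0.13). On arrays brought to equal width these counts were 1, 0 and 0 of 5 (medians -0.21, -0.10 and -0.27, beside -0.12, -0.04 and -0.14 over all genes), and with width as a covariate also 1, 0 and 0 (-0.19, -0.09 and -0.10, beside 0.02, 0.01 and -0.02).

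Genes from squalene to cholesterol stood higher in control + HMB than in control on the deposited values, but not clearly above all genes with array width as a covariate. The widths of control + HMB and control did not overlap, so the covariate fit cannot tell an HMB difference from one of width. All 12 genes were higher on the deposited values, with a median difference of 0.41, beside 55.4% of all genes and a median of 0.04. Nsdhl, a sterol dehydrogenase that helps to remove methyl groups from lanosterol, averaged 7.63 ± 0.069 in control + HMB and 6.96 ± 0.35 in control (SD, n = 3 each), a difference of 0.67 ± 0.24 (SE). Hsd17b7, the ketoreductase of the same steps, averaged 7.14 ± 0.32 and 6.48 ± 0.52 in these groups and differed by 0.67 ± 0.30. Dhcr7, which carries out the last reduction to cholesterol in one form of the pathway, averaged 7.36 ± 0.035 and 6.90 ± 0.060 and differed by 0.46 ± 0.21. None of the 3 passed (adjusted p = 0.3499, 0.4289 and 0.4294, limma). With width as a covariate the differences were 0.18 ± 0.31 for Nsdhl, 0.28 ± 0.44 for Hsd17b7 and 0.06 ± 0.28 for Dhcr7, and on arrays brought to equal width 0.45, 0.47 and 0.25.

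Scaling moved all genes as well as these 12. On arrays brought to equal width, 8 of the 12 genes were higher and the median was 0.19, beside -0.12 over all genes, so that the sterol genes lay above all genes by 0.31, against 0.38 on the deposited values. With width as a covariate 7 of 12 were higher, and the median of 0.04 lay 0.03 above that of all genes. Without control replicate 1 the count was 10 of 12 and the median 0.18. In DIO against control 10 of the 12 genes were higher (median 0.16), but 6 of 12 without control replicate 1, 6 of 12 without DIO replicate 3, 7 of 12 with equal widths (0.05, all genes -0.04) and 6 of 12 with width as a covariate (0.01, all genes 0.01). In DIO + HMB against DIO 5 of 12 were higher (median -0.02), and the count was 2 without DIO replicate 2 and 9 without DIO replicate 3. It was 2 of 12 with equal widths (median -0.18, all genes -0.14) and 2 of 12 with width as a covariate (-0.24, all genes -0.02). In DIO + HMB against control + HMB 1 of 12 was higher (median -0.28, all genes -0.02). It was 0 of 12 with equal widths (-0.32, all genes -0.06) and 0 of 12 with width as a covariate (-0.32, all genes -0.025). Hsd17b7 differed most, lower in DIO + HMB by 0.64 ± 0.28 (adjusted p = 0.9999, limma), and its groups overlapped. In DIO + HMB against control 11 of 12 were higher (median 0.04, all genes 0.01), but 5 of 12 without control replicate 1. With equal widths 3 of 12 were higher (-0.18, all genes -0.17), and with width as a covariate 2 of 12 (-0.29, all genes -0.01).

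What these genes showed most was variation between tumors of the same group. Sqle, the squalene monooxygenase and a slow step of the sterol branch, measured 7.52, 7.41, 7.76 and 8.44 in DIO + HMB tumors, 7.95, 7.92 and 8.68 in DIO tumors, 7.90, 7.96 and 8.54 in control + HMB tumors, and 7.47, 8.22 and 8.26 in control tumors. One tumor of each group stood off from the rest, high in the first 3 groups and low in control. The same tumors recurred over the 12 genes. DIO + HMB replicate 4 was the highest of its group for 10 of 12 genes (26.5% of all genes), and replicates 2 and 1 were the lowest for 9 and 3. DIO replicate 3 was the highest for 8 of 12 (34.2% of all genes) and DIO replicate 2 the lowest for 10 of 12 (35.9%). Control replicate 1 was the lowest for 11 of 12 (30.8%). In control + HMB replicate 3 was the highest for 7 of 12 (34.6%).

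The mean of the 12 genes, each centered on its mean over all arrays, was -0.22, -0.30, 0.01 and 0.37 in DIO + HMB tumors, 0.07, -0.39 and 0.32 in DIO tumors, 0.09, 0.18 and 0.36 in control + HMB tumors, and -0.49, -0.02 and 0.03 in control tumors. Mevalonate entry had the same lowest and highest tumor as the sterol branch in all 4 groups. Its mean over 5 genes was -0.37, -0.45, -0.04 and 0.34 in DIO + HMB tumors, -0.08, -0.16 and 0.26 in DIO tumors, -0.02, 0.06 and 0.25 in control + HMB tumors, and -0.17, 0.10 and 0.28 in control tumors. On arrays brought to equal width, DIO + HMB replicate 4 was the highest for all 12 sterol genes (36.7% of all genes), DIO replicate 3 for 11 (57.2%) and control + HMB replicate 3 for 11 (51.5%). Control replicate 1 was then the lowest for all 12 (39% of all genes). Other positions changed with this scaling, since control replicate 2 was the highest for 9 of 12 (44.9%) and control + HMB replicate 2 the lowest for 9 of 12 (60.1%). The tumors share array and normalization within each column, and this pattern was noticed in the data and is given as a description.

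**Figure D3:**
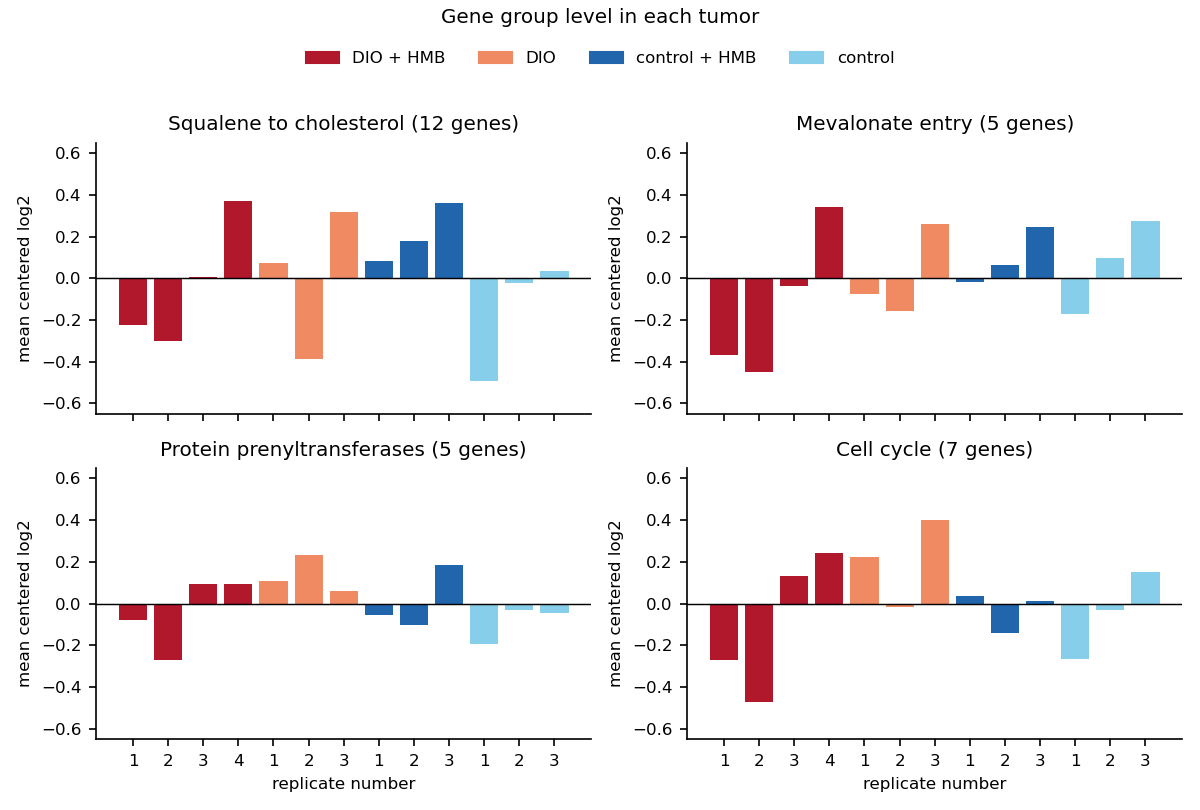
Mean of centered log2 values over the genes of a list (bars) in each tumor, by group and replicate, where 0 is the mean of 13 arrays. The sterol branch and mevalonate entry are highest in the same tumor of every group, and 7 cell cycle genes share the lowest and the highest tumor in DIO + HMB, DIO and control.

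Other marker lists also varied between these tumors, not always in step with the sterol genes. The mean of 7 cell cycle genes was -0.27, -0.47, 0.13 and 0.24 in DIO + HMB tumors, 0.22, -0.02 and 0.40 in DIO tumors, 0.04, -0.14 and 0.01 in control + HMB tumors, and -0.27, -0.03 and 0.15 in control tumors. Its lowest and highest tumors were those of the sterol branch in 3 of the 4 groups, with control + HMB as the exception. The mean of 8 fibroblast genes was -0.99 in DIO replicate 3, against 0.45 and 0.57 in DIO replicates 1 and 2, and 0.55 in control replicate 1, against -0.56 and -0.17 in control replicates 2 and 3. In control + HMB replicates 1 to 3 it was -0.62, 0.355 and -0.04, lowest in the tumor where the sterol mean was also lowest. In DIO + HMB replicates 1 to 4 it was -0.05, 0.25, 0.53 and -0.28. Adipocyte markers were highest in DIO + HMB replicate 2 (2.38), where sterol genes were low, and lowest in control replicate 1 (-1.73), where sterol genes were also low. The part of tumor cell share or of dividing cells in the sterol pattern was not tested.

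Spread was unequal across the route. The SD between tumors of the same group had a median of 0.35 on the log2 scale over the 12 sterol genes and 0.30 over mevalonate entry, against 0.14 over the protein prenyltransferases and 0.24 over all genes. It was largest among sterol genes for Lss (0.48), the lanosterol synthase, and Cyp51 (0.45), the lanosterol demethylase. It was smallest for Ebp (0.14), a sterol isomerase. The share of a gene's variation that lay between the 4 groups had a median of 20.8% over the sterol genes and 18.9% over mevalonate entry, against 47.5% over the prenyltransferases and 27.5% over all genes. For Ggps1 it was 86.7%, above 99.9% of all genes.

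**Figure D4:**
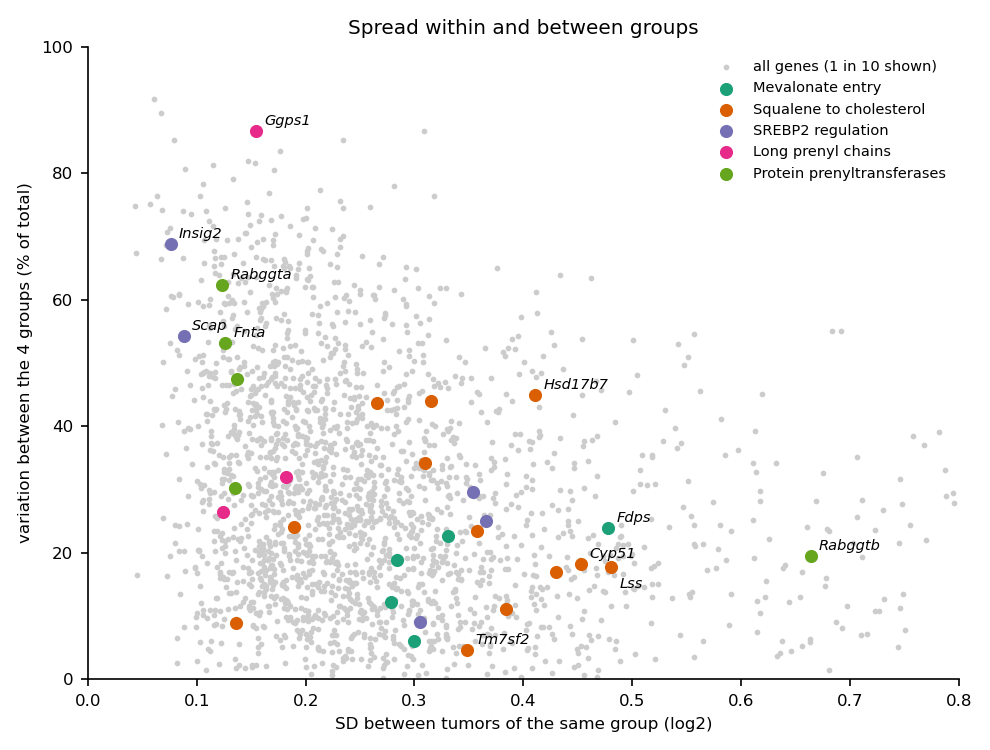
Share of variation between the 4 groups (vertical, percent) against the SD between tumors of a group (horizontal, log2) for 30 members by role and for 1 in 10 of all genes (gray). Ggps1 combines a small SD (0.15) with a share of 86.7%, whereas Fdps, Lss and Cyp51 have SDs of 0.45 to 0.48 and shares of at most 23.9%.

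Genes that control SREBP2 split into a variable and a steady pair. Srebf2, which encodes SREBP2, measured 8.65, 8.50, 8.73 and 9.23 in DIO + HMB tumors, 8.79, 8.51 and 9.43 in DIO tumors, 8.94, 8.86 and 9.11 in control + HMB tumors, and 8.76, 9.11 and 9.00 in control tumors. Insig1, itself a target of SREBP2, measured 8.47, 9.03, 8.96 and 9.26 in DIO + HMB tumors, 8.91, 8.75 and 9.81 in DIO tumors, 9.19, 9.43 and 9.53 in control + HMB tumors, and 9.05, 9.61 and 9.20 in control tumors. Both overlapped between all groups, and both had their highest value of all tumors in DIO replicate 3.

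Insig2, the second INSIG gene, and Scap had the smallest SDs of all members, 0.076 and 0.088. Insig2 averaged 5.99 ± 0.060 in DIO + HMB, 5.86 ± 0.13 in DIO, 5.99 ± 0.054 in control + HMB and 5.77 ± 0.031 in control (SD). Every tumor of both HMB groups lay above every control tumor, and DIO tumors overlapped all groups. Insig2 was higher by 0.22 ± 0.10 (SE) in DIO + HMB than in control (adjusted p = 0.3351, limma) and by 0.23 ± 0.11 in control + HMB (adjusted p = 0.4516). On arrays brought to equal width these differences were 0.01 and 0.05, and with width as a covariate 0.05 and 0.06. Scap averaged 7.41 ± 0.054 in DIO + HMB, 7.35 ± 0.13 in DIO, 7.35 ± 0.11 in control + HMB and 7.20 ± 0.059 in control. Stard4, a carrier of cholesterol between membranes, averaged 5.75 ± 0.40 in DIO + HMB and 6.02 ± 0.26 in DIO, with overlap.

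Of the protein prenyltransferases, the subunits of one enzyme did not move together. Fnta, the α subunit shared by farnesyltransferase and geranylgeranyl transferase I, averaged 7.95 ± 0.15 in DIO + HMB, 7.90 ± 0.11 in DIO, 7.85 ± 0.061 in control + HMB and 8.16 ± 0.15 in control (SD). It was lower in control + HMB than in control by 0.30 ± 0.13 (SE) and lower in DIO by 0.25 ± 0.13, and in both cases the groups did not overlap. With equal widths the differences were -0.55 and -0.36, and with width as a covariate -0.53 and -0.37. Fntb, the β subunit of farnesyltransferase, was higher in DIO than in control by 0.30 ± 0.13, and Pggt1b, that of geranylgeranyl transferase I, by 0.15 ± 0.13. Rabggta, the α subunit of the Rab enzyme, averaged 7.43 ± 0.082 in DIO and 7.06 ± 0.14 in control, a difference of 0.36 ± 0.13. None passed (adjusted p = 0.4044 for Fnta in control + HMB, 0.6546 for Fnta in DIO, 0.6378 for Fntb in DIO, 0.8050 for Pggt1b in DIO and 0.5951 for Rabggta in DIO, limma). Rabggtb, the partner of Rabggta and named here after its values were seen, had the widest range of all members, with 6.46 in DIO + HMB replicate 2 and 8.97 in DIO replicate 2, and an SD within groups of 0.66.

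Counts over the whole route were read against all genes. In control + HMB against control, 27 of 30 members were higher with a median difference of 0.21, beside 55.4% of all genes (median 0.04) and 71.2% of the 11090 genes above the median level (0.13), among which all 30 members lie. The groups did not overlap for 8 members that were higher (11.4% of all genes) and for 1 that was lower (6.07%). At an unadjusted p under 0.05 the 4 members that were higher compare with 7.22% of all genes, and the 1 that was lower with 4.22%. On arrays brought to equal width 13 of 30 members were higher (median -0.03, all genes -0.12), and with width as a covariate 15 of 30 (0.01, all genes 0.02). Relative to the genes above the median level, the members' median was higher by 0.08 on the deposited values and by 0.06 with equal widths, and stood at -0.005 with width as a covariate.

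In DIO against control, 21 of 30 members were higher (median 0.10, all genes 53.8% and 0.02, genes above the median level 61.1% and 0.06). At an unadjusted p under 0.05 there were 4 higher (4.31% of all genes) and 0 lower (3.44%), namely Ggps1, Rabggta, Dhcr7 and Fntb. The groups did not overlap for 4 members that were higher (6.04%) and 1 that was lower (4.95%). With equal widths 15 of 30 were higher (median 0.004, all genes -0.04), and with width as a covariate 14 of 30 (-0.02, all genes 0.01).

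In DIO + HMB against DIO, 12 of 30 members were higher (median -0.09, all genes 47.9% and -0.01, genes above the median level 56.9% and 0.03). At an unadjusted p under 0.05 there were 0 higher (3.34%) and 0 lower (3.75%), and the groups did not overlap for 0 members in either direction (3.57% and 4.22%). The differences of largest size were those of Rabggtb, lower by 0.72 ± 0.44 (SE), Fdps, lower by 0.51 ± 0.32, and Sqle, lower by 0.40 ± 0.29. With equal widths 3 of 30 were higher (median -0.23, all genes -0.14), and with width as a covariate 5 of 30 (-0.21, all genes -0.02). Without DIO + HMB replicates 1 and 2, the arrays with the highest B cell and fat markers, 20 of 30 were higher (median 0.07). Those were left out after the data were seen, and replicate 3, with the highest skeletal muscle markers, was kept. Replicates 1 and 2 were the lowest of the group for 10 and 18 of 30 members, so a fit without them raises the members in DIO + HMB. Values of all genes in this fit are not given here.

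**Figure D5:**
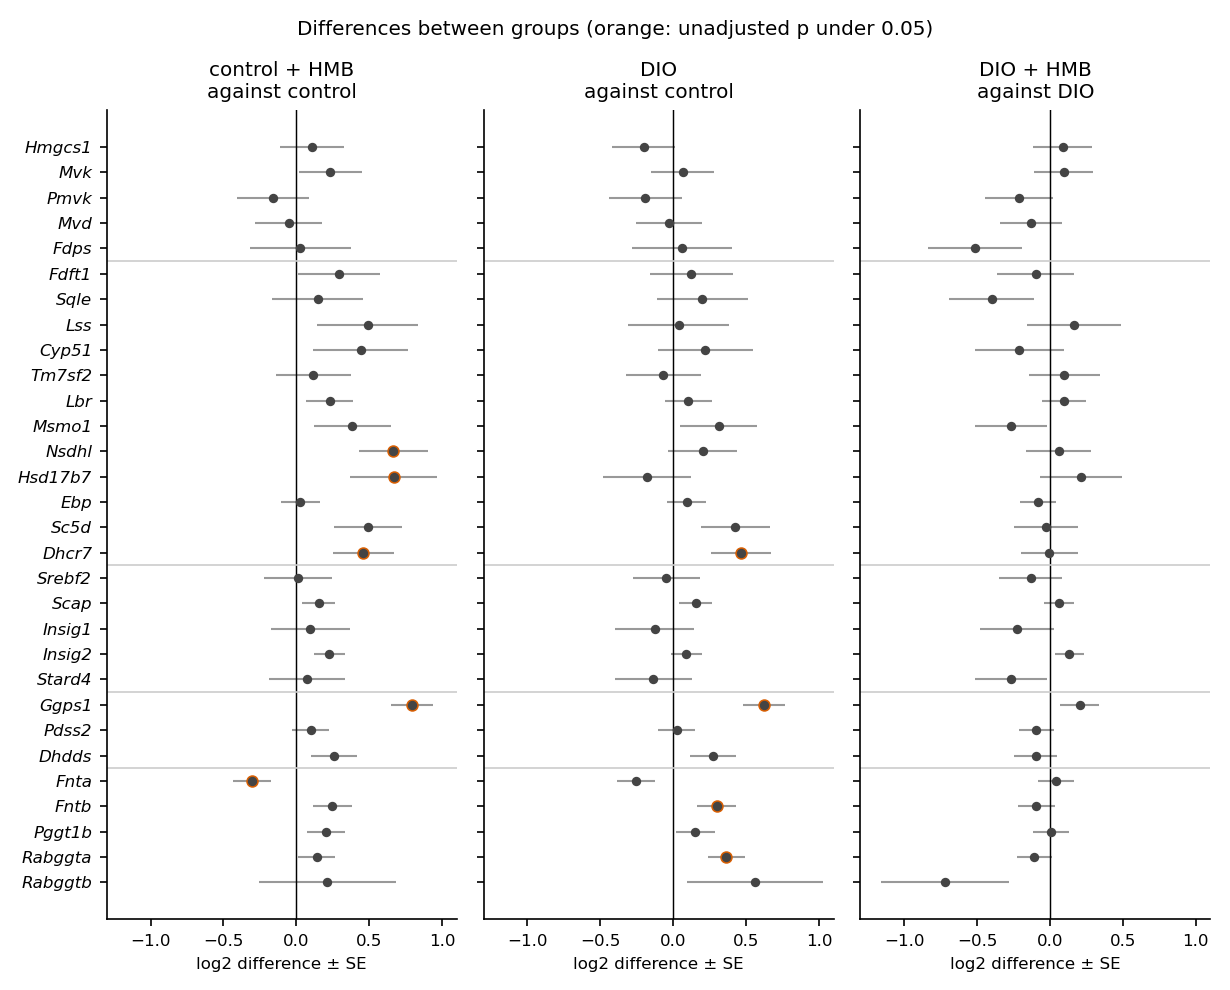
Log2 difference with its SE for 30 members (rows, by role) in control + HMB against control, DIO against control and DIO + HMB against DIO, where orange marks an unadjusted p under 0.05. Ggps1 has the difference of largest size from control in both of the first 2 panels (0.79 and 0.62), and no member of the last panel is marked.

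In DIO + HMB against control, 19 of 30 members were higher (median 0.03, all genes 51.2% and 0.01, genes above the median level 65.7% and 0.10). At an unadjusted p under 0.05, 3 were higher (8% of all genes, 13.4% of those above the median level) and 0 lower (6.76%). They were Ggps1, Dhcr7 (0.46 ± 0.19, but 0.21 with equal widths and 0.03 with width as a covariate) and Insig2. The groups did not overlap for 5 that were higher (8.35%) and 0 that were lower (6.59%). With equal widths 7 of 30 were higher (median -0.21, all genes -0.17), with width as a covariate 9 of 30 (-0.20, all genes -0.01), and without DIO + HMB replicates 1 and 2 24 of 30 (0.25). In DIO + HMB against control + HMB, 5 of 30 were higher (median -0.14, all genes 44% and -0.02, genes above the median level 41.9% and -0.025). At an unadjusted p under 0.05 there were 0 higher (0.933%) and 1 lower (1.92%). The groups did not overlap for 0 members that were higher (1.27%) or lower (3.07%). With equal widths 3 of 30 were higher, with width as a covariate 4 of 30, and without those 2 arrays 16 of 30 (0.01).

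The HMB effect averaged over both diets was above 0 for 20 of 30 members (median 0.09, all genes 52% and 0.01, genes above the median level 67.7% and 0.08). At an unadjusted p under 0.05, 3 were higher (8.1% of all genes, 14.1% of those above the median level) and 0 lower (5.75%). They were Ggps1 (0.50 ± 0.10), Nsdhl (0.36 ± 0.16) and Insig2 (0.18 ± 0.074). With equal widths the count was 7 of 30 (median -0.12, all genes -0.13) and with width as a covariate 9 of 30 (-0.11, all genes -0.003). The 3 differences were then 0.30, 0.18 and 0.02 with equal widths and 0.39, -0.02 and 0.05 with the covariate. The interaction, which subtracts the HMB effect on the control diet from that on the DIO diet, was below 0 for 29 of 30 members. Its median was -0.32, against -0.05 over all genes (43.4% above 0) and -0.085 over genes above the median level (36.1% above 0). At an unadjusted p under 0.05 the interaction had 0 members above 0 (1.63%) and 1 below (3.19%), Ggps1. The median was -0.26 with equal widths (all genes -0.02), -0.22 with width as a covariate (all genes -0.04) and -0.12 without DIO + HMB replicates 1 and 2.

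Genes that handle the products of the route were described from 6 further lists, and 0 of their measured genes passed in any comparison. Beside them, 55.4% of all genes were higher in control + HMB than in control (median 0.04), 53.8% in DIO than in control (0.02) and 47.9% in DIO + HMB than in DIO (-0.01). Over the genes above the median level these were 71.2% (0.13), 61.1% (0.06) and 56.9% (0.03). Of 11 genes for sterol transport, esterification and efflux, 9 were higher in control + HMB than in control (median 0.25), 8 in DIO than in control (0.13), and 10 in DIO + HMB than in DIO (0.23). Npc1, which exports cholesterol from lysosomes, was higher by 0.39 ± 0.12 (SE) in control + HMB than in control. Lipa, the lysosomal acid lipase that frees cholesterol from its esters, was higher by 0.66 ± 0.19, and Ch25h, which makes 25-hydroxycholesterol, by 0.87 ± 0.27. The adjusted p-values were 0.3033, 0.2897 and 0.3033 (limma). In DIO + HMB the differences from the same control tumors were 0.38 ± 0.11 for Npc1, 0.67 ± 0.18 for Lipa and 0.85 ± 0.25 for Ch25h, and in DIO Ch25h differed by 0.86 ± 0.27.

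Of 13 genes for dolichol and ubiquinone, 11 were higher in control + HMB than in control (median 0.04) and 6 in DIO + HMB than in DIO (-0.01). Coq5, a methyltransferase of ubiquinone synthesis, was higher than in control by 0.51 ± 0.16 in DIO + HMB and by 0.56 ± 0.17 in control + HMB. Coq3, another such methyltransferase, had an interaction of -0.71 ± 0.18 (adjusted p = 0.9334, limma). Of 13 prenylated GTPases and lamins, 9 were higher in DIO + HMB than in control (median 0.09, all genes 51.2% and 0.01). In control + HMB 10 were higher than in control (0.13), and in DIO without HMB 12 were (0.07). In DIO + HMB against DIO 7 were higher (0.01). Rhob, a GTPase that carries either prenyl group, was higher than in control by 0.56 ± 0.14 in DIO + HMB and by 0.51 ± 0.15 in control + HMB (adjusted p = 0.1842 and 0.3033, limma).

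The last 3 lists were small. Of 6 genes that trim or escort prenylated proteins, 5 were higher in control + HMB than in control (median 0.31), 4 in DIO than in control (0.22), and 5 in DIO + HMB than in DIO (0.06). Of 8 genes for the processing and degradation of SREBP, the counts were 6 (0.12), 5 (0.08) and 6 (0.05). Of 3 measured genes at the side branches of HMG-CoA, ketone body synthesis among them, they were 3 (0.21), 2 (0.11) and 1 (-0.06). Counts for these lists were not repeated on rescaled arrays.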

How the data were processed

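Tumor RNA was labeled and hybridized to 13 arrays of the Affymetrix Mouse Gene 2.1 ST type. The deposited log2 values had been background corrected, quantile normalized and summarized per probe set by the authors (RMA). RMA, affy and limma are named in the submitters' processing notes. No tool version, genome build or scan date is given in the sources used here, so batches could not be tested. The number of arrays limits the precision.

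Of 41345 probe sets, 23521 had 1 gene symbol. For each of 22180 genes the probe set with the highest mean was used, with no filter on low values. The 4 group means were fitted over all arrays with lmFit and eBayes of limma 3.58.1 (R 4.3.3), and two-sided p-values were adjusted over all genes (Benjamini-Hochberg, threshold 0.05). The script was tested on simulated data with known changes, 50 genes at each size from 0.5 to 2. Noise was drawn independently for each gene, whereas genes varied together in the tumors, so recovery in the tumors may be lower. A log2 change of 0.5 was recovered for 4% of changed genes in control + HMB against control and 6% in DIO against control. In DIO + HMB against DIO it was 14%, and 0% for the interaction. A change of 1 was recovered for 60%, 72%, 58% and 32%. That no member passed therefore does not show that differences of about 0.5 are absent. Lists are described by counts and medians beside those of all genes, with no test of a list.

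Values in every array are given for members with an unadjusted p under 0.01 and for Hmgcs1, Fdps, Sqle, Ggps1, Srebf2 and Insig1, other members are named at p under 0.05, and related genes at p under 0.01. Genes described only for their spread, their group means or a wide range were chosen after their values were seen. The members and lists were chosen with earlier results of these data known. Alternatives were the mean over probe sets, a filter at the median level, arrays centered and scaled to equal width, width as a covariate, only the 2 groups compared, a robust trended variance, the replicate number as a block, the methods' t-test as a statistic per gene, and each array left out. Added after seeing the data were the fit without DIO + HMB replicates 1 and 2, the background of genes above the median level, and the rescaled and reduced counts of the sterol genes. Promoters came from RefSeq (GRCm38.p6).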

Additional observations from a re-analysis of the deposited data

Results flagged for a closer look

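Of the 30 members, each checked in the 4 DIO + HMB tumors for a value far from the others, 1 stood out. Rabggta, the α subunit of the Rab geranylgeranyl transferase, measured 7.10 in DIO + HMB replicate 3, against 7.38 to 7.41 in the other 3 tumors of the group. The gap to the nearest value was 0.916 of the range of the group, above Dixon's critical value for 4 arrays. By chance about 5% of such checks would be past it. The same array had the highest skeletal muscle markers of all arrays, with a mean of 8.82 over 10 genes against 3.69 at the lowest DIO + HMB array, and their part in the value was not tested.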

How the results depend on the processing

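The count of members past the threshold was 0 in all 150 refits. Among 366 refits of single members, by limma or by the methods' t-test, 0 had an adjusted p under 0.05 (lowest 0.06142, for Ggps1 in DIO + HMB against control). Over its 22 refits Ggps1 stayed above control, by 0.57 to 0.91 in control + HMB (adjusted p 0.1539 to 0.9997), 0.53 to 0.72 in DIO (0.3142 to 0.8759) and 0.56 to 0.93 in DIO + HMB (0.06142 to 0.989). With equal widths the median difference of the members was -0.025 in control + HMB against control, -0.21 in DIO + HMB against control and -0.12 for the averaged HMB effect, beside -0.12, -0.17 and -0.13 over all genes. With width as a covariate it was -0.20 in DIO + HMB against control (all genes -0.01), and Nsdhl reversed to -0.02 for the averaged HMB effect (adjusted p = 0.9994). Without DIO + HMB replicates 1 and 2, the lowest of the group for 10 and 18 of 30 members, the median was 0.25 in DIO + HMB against control and -0.12 for the interaction. The shifts with equal widths went with shifts of all genes in the same direction, and the cause of the others was not tested.

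With each array left out in turn, the median ran from 0.14 to 0.26 in control + HMB against control, -0.005 (without DIO replicate 3) to 0.19 in DIO against control, -0.16 to 0.06 (without DIO replicate 3) in DIO + HMB against DIO, -0.10 (without control replicate 1; -0.04 without DIO + HMB replicate 4) to 0.15 in DIO + HMB against control, -0.21 to -0.09 in DIO + HMB against control + HMB, 0.01 to 0.12 for the averaged effect and -0.40 to -0.17 for the interaction. Replicate numbers did not pair the tumors, since 3 of 18 same-numbered pairs correlated above 0.1 and 4 arrays correlated best with their own number. With the replicate number as a block 0 members passed. The number 4 occurs only in DIO + HMB, so this fit in effect leaves that array out. The members with an unadjusted p under 0.05 then numbered 2 in DIO + HMB against DIO (7.36% of all genes), 5 in DIO + HMB against control (12.6%), 8 in DIO + HMB against control + HMB (3.38%), 5 in control + HMB against control (9.81%), 3 in DIO against control (6.75%), 3 for the averaged effect (12.1%) and 6 for the interaction (4.96%). Without the block these counts were 0, 3, 1, 5, 4, 3 and 1. With only DIO + HMB replicate 4 left out and no block, the count in DIO + HMB against control + HMB was 5. The part of that array in the other counts was not tested.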
